A study of Mus musculus with 26 samples.

Results

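The PDGF system and the genes of mural cells, the pericytes and smooth muscle cells that wrap blood vessels, were followed across *Traf7* knockout embryos. The members were chosen by name, and all 9 were found among the 54532 genes of both expression tables, namely the receptors *Pdgfra* and *Pdgfrb*, the ligands *Pdgfa*, *Pdgfb* and *Pdgfc*, and the mural cell genes *Rgs5*, *Cspg4*, *Abcc9* and *Kcnj8*. Whole mouse embryos at E9.5, freed of the yolk sac, had been sequenced with 1 library per embryo. In the 6 GLOko embryos the floxed *Traf7* gene had been deleted throughout the body by E2a-Cre, and they were set against 6 wild-type (WT) embryos. In the 7 ECko embryos (*Traf7* fl/fl with Tie2-Cre) both floxed copies were targeted in endothelium and, since Tie2-Cre is also active there, in blood cells. They were set against 7 EChet embryos, which carried Tie2-Cre as well and lost 1 copy of *Traf7* in the same cells, with 1 left intact. All mice were of C57BL/6 background. Embryos are called by group and replicate number (GLOko 1 to GLOko 6 and so on), and since the labels tie no number to a litter or a day, the p-values measure only the spread between these embryos.

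PDGF ligands are dimers secreted by one cell type and read by receptor tyrosine kinases on another. PDGF-A and PDGF-C act mainly through PDGFRα, which marks mesenchyme of mesoderm and neural crest origin, while PDGF-B, secreted by endothelium, recruits mural cells through PDGFRβ. *Rgs5*, *Cspg4* (which encodes NG2), *Abcc9* and *Kcnj8* are markers of pericytes in the mature vasculature, where the last pair encodes the SUR2 and Kir6.1 subunits of an ATP-sensitive potassium channel. Both receptors are also made widely in embryonic mesenchyme, outside the vessel wall. In whole embryos, fewer cells of a type and less RNA per cell cannot be told apart. Values are FPKM (fragments scaled to the length of the gene and the depth of the library), which compare genes per length.

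By level, the receptors stood first and the channel gene *Kcnj8* last in each of the 4 groups. *Pdgfra* led in GLOko, ECko and EChet embryos and *Pdgfrb* in WT embryos, with means between 12.2 FPKM (*Pdgfra* in WT embryos) and 16.5 FPKM (*Pdgfra* in GLOko embryos), and the embryos of the pair overlapped in every group. *Pdgfa* and *Pdgfc* followed with means of 7.94 to 11.8 FPKM and overlapped with each other in every group. *Pdgfa* overlapped with *Pdgfrb* in every group and with *Pdgfra* except in EChet embryos. *Rgs5* (3.03 to 4.64 FPKM) and *Pdgfb* (2.37 to 4.03 FPKM) came next, and they overlapped except in EChet embryos. *Abcc9* averaged 0.805 to 1.69 FPKM and *Cspg4* 0.140 to 0.195 FPKM, and all embryos had more of *Abcc9* than of *Cspg4*. *Kcnj8* had at most 7 reads in an embryo. Among genes averaging 0.1 FPKM or more, the receptors exceeded 75.3 to 81.6%, and *Cspg4* exceeded 5.07 to 9.39% of them, so that transcripts for NG2 and Kir6.1 were scarce at E9.5.

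**Figure D1:**
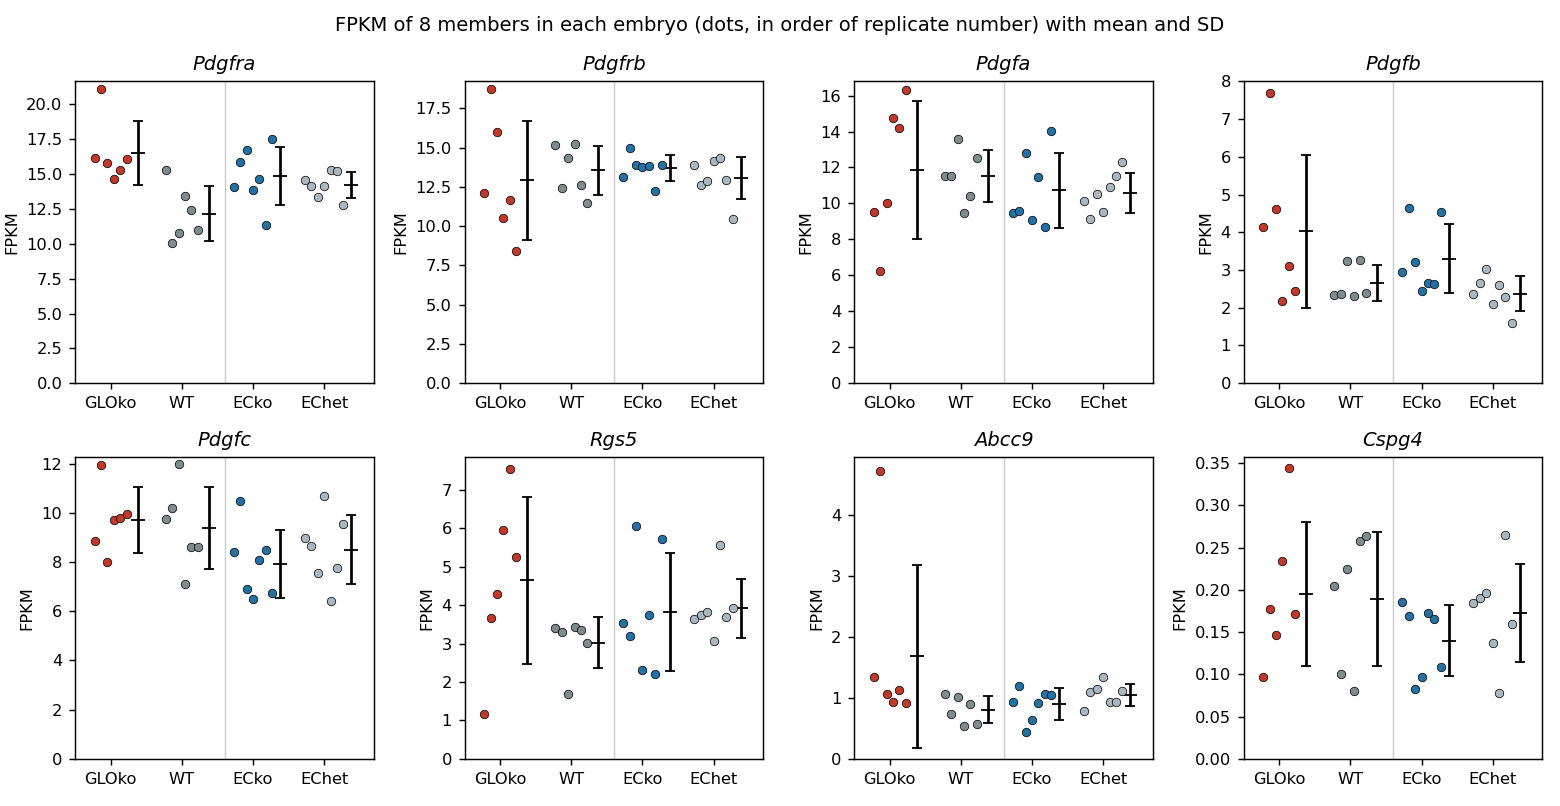
FPKM of 8 members (panels) in each of 26 embryos, with dots for embryos in order of replicate number and a bar for mean and SD to the right of each group. In GLOko embryos *Pdgfra* ran from 14.6 to 21.1 FPKM, against 10.03 to 15.3 FPKM in WT embryos, and GLOko 2 stood apart in *Pdgfra* and *Abcc9*.

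Promoter sequence of 4 members is shown because the results turn on them. *Pdgfra* was the one member that passed the test in GLOko embryos, *Rgs5* passed it in 3 of 26 alternatives, and *Abcc9* and *Kcnj8* are neighbors that encode partner subunits but differed widely in level. RefSeq promoters (GRCm38.p6) were found for 7 of the 9 members. Shown are the bases upstream of the RefSeq start, on the strand of the gene. Capitals mark CACCC, which reads GGGTG on the other strand and is the core of the box bound by Krüppel-like factors, and GCGTG, which reads CACGC there. GCGTG is 1 form of the core bound by hypoxia-inducible factors, and the other form, ACGTG, was searched too, as was TATAAA, all on both strands. Matches that adjoin run together without a gap, and none overlapped.
Pdgfra, chr5:75152001-75152250, plus strand: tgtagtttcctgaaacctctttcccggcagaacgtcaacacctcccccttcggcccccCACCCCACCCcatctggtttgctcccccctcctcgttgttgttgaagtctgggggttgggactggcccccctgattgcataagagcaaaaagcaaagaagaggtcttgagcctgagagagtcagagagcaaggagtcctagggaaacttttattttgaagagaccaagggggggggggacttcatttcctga
Rgs5, chr1:169655251-169655500, plus strand: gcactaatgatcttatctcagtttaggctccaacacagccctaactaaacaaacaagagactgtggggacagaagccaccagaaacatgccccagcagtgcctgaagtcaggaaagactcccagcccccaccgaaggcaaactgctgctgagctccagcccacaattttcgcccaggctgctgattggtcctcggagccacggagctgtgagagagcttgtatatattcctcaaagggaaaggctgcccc
Abcc9, chr6:142702316-142702524, minus strand: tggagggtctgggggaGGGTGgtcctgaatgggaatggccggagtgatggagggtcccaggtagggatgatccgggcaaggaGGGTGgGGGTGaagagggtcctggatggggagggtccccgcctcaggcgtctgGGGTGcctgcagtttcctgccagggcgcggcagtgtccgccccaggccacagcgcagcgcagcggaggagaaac
Kcnj8, chr6:142571615-142571864, minus strand: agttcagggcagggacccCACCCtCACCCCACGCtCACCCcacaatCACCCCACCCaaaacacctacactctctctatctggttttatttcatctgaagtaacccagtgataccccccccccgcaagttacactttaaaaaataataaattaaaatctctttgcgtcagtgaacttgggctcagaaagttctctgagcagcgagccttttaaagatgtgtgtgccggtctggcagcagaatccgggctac
The *Pdgfra* window held CACCC 2 times, side by side, and neither GCGTG nor ACGTG. The *Rgs5* window held none of the motifs. *Abcc9* held CACCC 4 times in the 209 bases shown, which leave out bases annotated as exon, and *Kcnj8* held it 5 times, with GCGTG 1 time. Of 32851 RefSeq promoters, 52.0% held CACCC in the same 250 bases, 28.2% held GCGTG, 16.6% ACGTG and 12.4% TATAAA. These are matches of letters and not measured binding.

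Loss of *Traf7* was visible in the GLOko embryos, where *Traf7* ran from 1.75 to 3.12 FPKM, against 11.1 to 20.6 FPKM in WT embryos. WT 4 stood apart with 11.1 FPKM, while the other WT embryos had 18.9 to 20.6 FPKM, and the reason was not tested. In ECko embryos, where only endothelial and blood cells were targeted, *Traf7* ran from 13.6 to 20.4 FPKM, against 18.8 to 22.7 FPKM in EChet embryos. By limma, 1833 of 17573 tested genes (10.4%) passed an adjusted p of 0.05 in GLOko embryos, and 17 of 17514 (0.0971%) did in ECko embryos. At equal reads, GLOko 1 (16826 genes), GLOko 6 (17012) and GLOko 2 (18624) had the fewest detected genes of their group, against 19263 to 19707 in WT embryos. Cardiomyocyte markers were low in GLOko 1, ECko 3, ECko 4 and WT 4, with sums of 17.2, 53.7, 78.9 and 51.1 FPKM, while the other embryos had at least 281 FPKM. For several members, values without some of these embryos are given too.

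*Pdgfra* (ENSMUSG00000029231, chromosome 5, 75152292 to 75198215 of mm10, plus strand) encodes the receptor that PDGF-A and PDGF-C act through. It was 16.1, 21.1, 15.8, 14.6, 15.3 and 16.1 FPKM in GLOko embryos 1 to 6, against 15.3, 10.03, 10.7, 13.5, 12.4 and 10.97 FPKM in WT embryos 1 to 6. All GLOko embryos except GLOko 4 lay above every WT embryo, and the groups met only at WT 1, whose 15.3 FPKM reached the level of GLOko 4 and GLOko 5. The means were 16.5 ± 2.33 FPKM in GLOko and 12.2 ± 1.98 FPKM in WT embryos (SD, n = 6 each). The log2 fold change was 0.47 (standard error, SE, 0.12, adjusted p = 0.0325 by limma), a rise of 1.38-fold with a 95% interval of 1.15 to 1.66, and the exact permutation test over embryos gave p = 0.00433 (two-sided, unadjusted). *Pdgfra* was the only 1 of 8 tested members that passed, where 10.4% of all tested genes did (5.42% higher and 5.01% lower), and the only 1 with an unadjusted p under 0.05 by limma, where 28.3% of genes had one. In no member did all GLOko embryos lie above or below all WT embryos, as they did in 4.24% and 4.48% of genes.

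The call for *Pdgfra* lay close to the threshold. It was kept without GLOko 2, the highest embryo, with a log2 fold change of 0.39 and an adjusted p of 0.0289. It was lost without GLOko 3 (adjusted p = 0.0516), WT 2 (0.0799), WT 3 (0.0696), WT 4 (0.0531), WT 5 (0.0666) or WT 6 (0.0697), although the log2 fold change stayed between 0.41 and 0.49 in these fits. Without GLOko 1, GLOko 2 and GLOko 6 it was 0.36 (adjusted p = 0.0830 by limma), without GLOko 1 and WT 4 it was 0.50 (adjusted p = 0.0740), and in a fit that took each embryo's count of detected genes into account it was 0.45 (adjusted p = 0.0942). The sum of 22 other markers of mesenchyme was 312 to 615 FPKM in GLOko embryos and 347 to 434 FPKM in WT embryos, with GLOko 2 the highest, and none of them was at 0 in all embryos. The log2 fold changes of these markers had a median of 0.01, against 0.01 over all genes. Their mean log2 difference from the WT mean was -0.23, 0.41, 0.04, -0.14, -0.10 and -0.39 in GLOko 1 to GLOko 6. The part of mesenchyme in the rise of *Pdgfra* was not tested.

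In ECko embryos *Pdgfra* was 14.1, 15.9, 16.7, 13.9, 14.7, 11.3 and 17.5 FPKM, against 14.6, 14.1, 13.4, 14.1, 15.3, 15.2 and 12.8 FPKM in EChet embryos. The ECko embryos lay on both sides of the EChet embryos, with ECko 6 below and ECko 2, ECko 3 and ECko 7 above all of them. On the log2 scale the change was 0.06 (SE 0.08, adjusted p = 0.781 by limma) with a 95% interval of 0.923 to 1.18-fold. The effect in GLOko embryos minus that in ECko embryos was 0.41 on the log2 scale (SE 0.15), with an unadjusted p of 0.0108 and an adjusted p of 0.118 by limma, so that the effects were not shown to differ.

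*Pdgfrb* (ENSMUSG00000024620, chromosome 18, 61045150 to 61085061, plus strand) encodes the receptor by which mural cells respond to PDGF-B. It was 12.1, 18.7, 16.0, 10.5, 11.7 and 8.44 FPKM in GLOko embryos, against 15.2, 12.4, 14.4, 15.2, 12.6 and 11.5 FPKM in WT embryos. GLOko 2 and GLOko 3 lay above and GLOko 4 and GLOko 6 below every WT embryo, while the means were close, 12.9 ± 3.77 FPKM in GLOko and 13.5 ± 1.58 FPKM in WT embryos (SD, n = 6 each). The log2 fold change was -0.09 (SE 0.17, adjusted p = 0.778 by limma) with a 95% interval of 0.726 to 1.22-fold. It was -0.21 without GLOko 2 and 0.03 without GLOko 6, and neither passed. In ECko embryos *Pdgfrb* was 12.2 to 14.9 FPKM (median 13.9), against 10.4 to 14.3 FPKM (median 12.9) in EChet embryos, with a log2 fold change of 0.08 (adjusted p = 0.637 by limma).

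Since both receptors are measured in the same library, their ratio does not depend on scaling. *Pdgfra* over *Pdgfrb* was 1.34, 1.13, 0.989, 1.39, 1.31 and 1.91 in GLOko embryos, against 1.01, 0.807, 0.749, 0.885, 0.985 and 0.957 in WT embryos. GLOko 3 was the single GLOko embryo below the highest WT embryo, WT 1. The ratio was 1.09 ± 0.114 in ECko and 1.10 ± 0.0799 in EChet embryos (SD, n = 7 each). The ratio was chosen after the values of both genes had been seen and is given without a test. Over the 26 embryos, with each value taken relative to its group mean, the receptors rose and fell together (Pearson r = 0.61, Spearman rho = 0.70, permutation p = 5.70e-04 and 3.00e-04, adjusted over 6 pairs of members 0.00318 and 0.00180). Without GLOko 2 and ECko 6, the embryos farthest from the median of *Pdgfra*, r was 0.46. Within the GLOko and WT table r was 0.63 and rho 0.62 (adjusted p = 0.0393 and 0.107 by permutation), and r was 0.25 without GLOko 2 and WT 1. Within the ECko and EChet table r was 0.64 and rho 0.72 (adjusted p = 0.0147 and 0.0277), and r was 0.66 without ECko 6 and ECko 7.

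Of the ligands, *Pdgfa* (ENSMUSG00000025856, chromosome 5, 138976014 to 138997370, minus strand) was spread widely in GLOko embryos around a mean close to that of WT embryos. It was 9.504, 6.26, 10.02, 14.8, 14.2 and 16.3 FPKM in GLOko embryos, against 11.5, 11.5, 13.6, 9.49, 10.4 and 12.51 FPKM in WT embryos. GLOko 4, GLOko 5 and GLOko 6 were above every WT embryo and GLOko 2 was below every one. On the log2 scale the change was 0.00 (SE 0.20, adjusted p = 1.00 by limma) with a 95% interval of 0.747 to 1.34-fold. Means were 11.8 ± 3.84 FPKM in GLOko and 11.5 ± 1.46 FPKM in WT embryos (SD, n = 6 each). The log2 fold change was 0.16 without GLOko 2 and -0.10 without GLOko 6. Without GLOko 1, GLOko 2 and GLOko 6 it was 0.18, and it passed in none of these fits. In ECko embryos *Pdgfa* was 8.66 to 14.1 FPKM (median 9.59), against 9.14 to 12.3 FPKM (median 10.5) in EChet embryos, with a log2 fold change of 0.01 (adjusted p = 0.980 by limma). In the annotation 26.1% of its exon bases are shared with *6330403L08Rik* on the opposite strand, and reads of the pair may not be told apart, since no source used here says whether counting used strand. The shares were 6.50% for *Pdgfra*, 2.89% for *Pdgfc* and 1.89% for *Abcc9*, with gene models of at most 0.383 FPKM. *Pdgfa* is made largely by epithelia in the embryo. The sum of 12 epithelial markers was 211 to 572 FPKM in GLOko embryos and 227 to 310 FPKM in WT embryos, and GLOko 4, GLOko 5 and GLOko 6, which were high in *Pdgfa*, had the highest sums, 425 to 572 FPKM. None of these markers was at 0 in all embryos. GLOko 4 and GLOko 5 also had high sums of yolk sac endoderm markers, 143 and 579 FPKM. GLOko 6 had 10.4 FPKM and WT embryos had 6.01 to 31.1 FPKM. The part of epithelium or of yolk sac tissue in the spread of *Pdgfa* was not tested.

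*Pdgfb* (ENSMUSG00000000489, chromosome 15, 79995874 to 80014977, minus strand) is the endothelial ligand that draws mural cells to vessels. It was 4.13, 7.70, 4.62, 2.19, 3.09 and 2.45 FPKM in GLOko embryos, against 2.34, 2.37, 3.25, 2.30, 3.27 and 2.38 FPKM in WT embryos. GLOko 1, GLOko 2 and GLOko 3 were above every WT embryo, and the other 3 overlapped with or fell below WT. The log2 fold change was 0.49 (SE 0.26, adjusted p = 0.240 by limma, exact permutation p = 0.136), and it was 0.28 without GLOko 2, as it was without GLOko 1, GLOko 2 and GLOko 6. The 3 GLOko embryos high in *Pdgfb* were the 3 lowest in *Pdgfa*.

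In ECko embryos, in which the cells that make *Pdgfb* were the ones targeted, it was 2.94, 4.63, 3.21, 2.46, 2.66, 2.62 and 4.54 FPKM, against 2.36, 2.65, 3.03, 2.10, 2.60, 2.30 and 1.59 FPKM in EChet embryos. All 7 ECko embryos were above the EChet median of 2.36 FPKM and 3 of them (ECko 2, ECko 3 and ECko 7) were above every EChet embryo. The means were 3.29 ± 0.916 FPKM in ECko and 2.37 ± 0.457 FPKM in EChet embryos (SD, n = 7 each). On the log2 scale the change was 0.44 (SE 0.16), with an exact permutation p of 0.0221 for this single gene and an adjusted p of 0.251 by limma over all genes, so that the difference failed the correction. No member of 8 passed in ECko embryos by limma, where 0.0971% of all genes did (0.0571% higher and 0.04% lower), and none passed by limma-voom. At an unadjusted p under 0.05 there was 1 member, *Pdgfb*, and 14.5% of all tested genes. All ECko embryos lay above all EChet embryos in 0.274% and below them in 0.24% of genes, and in none of the members. The 18 endothelial markers summed to 137 to 164 FPKM in ECko and 130 to 158 FPKM in EChet embryos, and none was at 0 in all embryos. Relative to the mean of these markers, a setting chosen after seeing the data, *Pdgfb* differed by 0.30 on the log2 scale (exact permutation p = 0.0594) in ECko embryos and by 0.19 (exact permutation p = 0.318) in GLOko embryos.

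*Pdgfb* is also made by megakaryocytes, and GLOko 2 held far more of their transcripts than any other embryo. The 8 markers summed to 136 FPKM in GLOko 2, against 3.86 to 13.8 FPKM in the other GLOko embryos and 4.04 to 10.5 FPKM in WT embryos. Their part in the 7.70 FPKM of *Pdgfb* in this embryo was not tested. A list of 13 hypoxia response genes summed to 3035, 4257 and 3194 FPKM in GLOko 1 to GLOko 3. The other GLOko embryos had 2630 to 2997 FPKM. In ECko 2, ECko 3 and ECko 7 the sums were 2865, 3021 and 2837 FPKM. The other ECko embryos had 1722 to 2175 FPKM. WT 5 and EChet 3, the controls highest in *Pdgfb*, had 1544 and 1479 FPKM. The highest control sums were 2467 FPKM (WT 3) and 1804 FPKM (EChet 5). The part of hypoxia in *Pdgfb* was not tested. *Pdgfb* and *Pdgfrb* moved together over embryos (Pearson r = 0.73, Spearman rho = 0.54, permutation p = 0.00106 and 0.0113, adjusted over 6 pairs 0.00318 and 0.0340). Without GLOko 2 and GLOko 4 r was 0.57. Within the GLOko and WT table r was 0.80 and rho 0.67 (adjusted p = 0.0393 and 0.115 by permutation), and within the ECko and EChet table r was 0.58 and rho 0.51 (adjusted p = 0.0811 and 0.132), where r was 0.23 without ECko 2 and EChet 7. Without GLOko 1, GLOko 2 and GLOko 6, r was 0.56 and rho 0.42 (adjusted p = 0.0495 and 0.127 by permutation). Of these settings, rho passed only over all 26 embryos.

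*Pdgfc* (ENSMUSG00000028019, chromosome 3, 81036416 to 81214040, plus strand), a ligand that is activated by cleavage outside the cell, varied little between GLOko embryos. It was 7.99 to 11.96 FPKM (median 9.74) in GLOko embryos, against 7.09 to 12.002 FPKM (median 9.20) in WT embryos, and the groups overlapped over nearly their whole range. The log2 fold change was 0.08 (SE 0.13, adjusted p = 0.742 by limma), with a 95% interval of 0.865 to 1.29-fold. In ECko embryos it was 6.48 to 10.5 FPKM (median 8.07), against 6.43 to 10.7 FPKM (median 8.64) in EChet embryos, with a log2 fold change of -0.10 (adjusted p = 0.757). The 3 ligands summed to 25.6 ± 2.51 FPKM in GLOko and 23.6 ± 3.21 FPKM in WT embryos (SD, n = 6 each), and to 21.95 ± 2.63 FPKM in ECko and 21.5 ± 1.16 FPKM in EChet embryos (SD, n = 7 each).

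**Figure D2:**
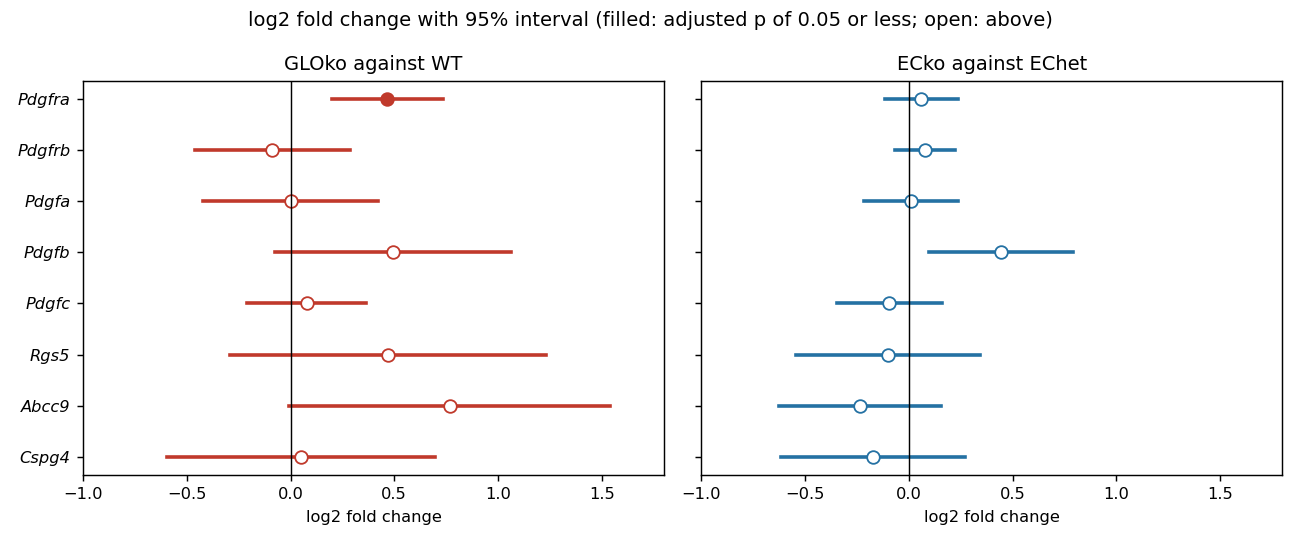
Log2 fold change (x axis) of 8 members (rows) in GLOko against WT (left) and ECko against EChet embryos (right), with 95% intervals from limma as lines. Filled points have an adjusted p of 0.05 or less, which holds for *Pdgfra* in GLOko embryos (0.47) and for no member in ECko embryos.

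Among the mural cell genes, *Rgs5* (ENSMUSG00000026678, chromosome 1, 169655501 to 169695813, plus strand) moved with the choice of embryos and weights. The gene encodes a regulator of G-protein signaling that is enriched in pericytes. It was 1.18, 3.66, 4.28, 5.94, 7.54 and 5.26 FPKM in GLOko embryos, against 3.39, 3.30, 1.69, 3.43, 3.35 and 3.00 FPKM in WT embryos. GLOko 2 to GLOko 6 were above every WT embryo, and GLOko 1 was below every WT embryo. On the log2 scale the change was 0.47 (SE 0.35, adjusted p = 0.410 by limma, exact permutation p = 0.273). Without GLOko 1 it was 0.81 (SE 0.21, adjusted p = 0.0383), and without GLOko 1, GLOko 2 and GLOko 6 it was 0.97 (adjusted p = 0.0269 by limma), so that *Rgs5* rose in these fits. Without both GLOko 1 and WT 4, the embryos low in heart muscle transcripts, it was 0.85 (adjusted p = 0.0628), without GLOko 5 it was 0.30 (adjusted p = 0.612) and without WT 3 it was 0.32 (adjusted p = 0.612). With all embryos kept but weighted by their fit (array weights), it was 0.78 (adjusted p = 0.0432 by limma). The fit without GLOko 1, GLOko 2 and GLOko 6 rests on GLOko 3, GLOko 4 and GLOko 5. GLOko 4 and GLOko 5, highest in *Rgs5*, had sums of yolk sac endoderm markers of 143 and 579 FPKM. GLOko 2, GLOko 3 and GLOko 6 had 7.04, 15.9 and 10.4 FPKM, and WT embryos 6.01 to 31.1 FPKM. The part of yolk sac tissue in *Rgs5* was not tested.

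GLOko 1 was also low in the sum of the 30 other mural and smooth muscle genes. They summed to 196 FPKM in GLOko 1, against 430 to 609 FPKM in the other GLOko embryos and 239 to 407 FPKM in WT embryos. The next lowest sums were those of ECko 4 (228 FPKM), WT 4 (239 FPKM) and ECko 3 (250 FPKM), the other embryos poor in heart muscle transcripts. Of these, WT 4 had the highest *Rgs5* of its group, 3.43 FPKM. The part of heart muscle or of mural cells in these sums and in the low *Rgs5* of GLOko 1 was not tested. In ECko embryos *Rgs5* was 3.52, 3.20, 6.06, 2.32, 3.74, 2.20 and 5.72 FPKM, against 3.07 to 5.55 FPKM (median 3.73) in EChet embryos, with ECko 3, poor in heart muscle transcripts, the highest. The log2 fold change was -0.10 (SE 0.21, adjusted p = 0.865 by limma), or -0.23 without ECko 3 and 0.00 without ECko 4. The effect in GLOko minus that in ECko embryos was 0.57 (SE 0.42, adjusted p = 0.455). No relation of *Rgs5* with *Pdgfrb* was detected over embryos (Pearson r = -0.10, Spearman rho = -0.12, permutation p = 0.772 and 0.596), although both are used as pericyte markers.

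*Abcc9* (ENSMUSG00000030249, chromosome 6, 142587862 to 142702315, minus strand), the SUR2 subunit, was 1.34, 4.73, 1.06, 0.927, 1.14 and 0.923 FPKM in GLOko embryos, against 1.07, 0.736, 1.01, 0.545, 0.898 and 0.575 FPKM in WT embryos. All GLOko embryos lay above the WT median of 0.817 FPKM, and GLOko 1, GLOko 2 and GLOko 5 lay above every WT embryo. GLOko 2 was more than 3 times as high as any other embryo of the study. On the log2 scale the change was 0.77 (SE 0.36, adjusted p = 0.180 by limma, exact permutation p = 0.0303, unadjusted), and it was 0.42 without GLOko 2 (adjusted p = 0.194) and 0.67 without WT 4. In ECko embryos *Abcc9* was 0.941, 1.199, 0.449, 0.639, 0.925, 1.07 and 1.06 FPKM, against 0.782 to 1.34 FPKM (median 1.09) in EChet embryos. ECko 3 and ECko 4, which were below every EChet embryo, were also the ECko embryos poor in cardiomyocyte transcripts, and *Abcc9* is known to be transcribed in heart muscle. WT 4, likewise poor in them, was the lowest WT embryo, with 0.545 FPKM. The part of heart muscle in these values was not tested. GLOko 1, with fewer cardiomyocyte transcripts than any other embryo, had 1.34 FPKM. In ECko embryos the fitted log2 fold change was -0.23 (SE 0.18, adjusted p = 0.588 by limma), or -0.10 without ECko 3 and -0.17 without ECko 4, and the difference of effects was 1.00 (SE 0.40, unadjusted p = 0.0185, adjusted p = 0.150), or 0.66 without GLOko 2.

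*Kcnj8* (ENSMUSG00000030247, chromosome 6, 142564837 to 142571614, minus strand) lies 16.2 kb downstream of *Abcc9* with no annotated gene between them, and encodes the pore that SUR2 controls. Its reads were 0, 4, 4, 0, 2 and 0 in GLOko embryos, against 0, 2, 7, 0, 2 and 2 in WT embryos, and 0, 0, 0, 0, 3, 0 and 3 in ECko embryos, against 0, 0, 2, 5, 0, 0 and 3 in EChet embryos. In sum these were 10 reads in GLOko embryos (exact Poisson 95% interval 4.80 to 18.4, counting error only), 13 in WT (6.92 to 22.2), 6 in ECko (2.20 to 13.1) and 10 in EChet embryos (4.80 to 18.4). A count of 0 allows up to 3 reads, or 0.0457 to 0.0699 FPKM in the libraries of the study. No difference was detectable at this depth (exact permutation p = 0.762 for GLOko against WT and 0.559 for ECko against EChet), and *Kcnj8* did not pass the filter of a mean of 0.1 FPKM. Over all 26 embryos *Abcc9* averaged 1.10 FPKM, while *Kcnj8* averaged 0.0295 FPKM. The other pore of the family, *Kcnj11*, was 0.751 ± 0.313 FPKM in GLOko and 0.451 ± 0.122 FPKM in WT embryos (SD, n = 6 each), with a log2 fold change of 0.59 (adjusted p = 0.177). *Abcc9* and *Kcnj8* had a Pearson r of 0.44 over embryos (Spearman rho = 0.42, permutation p = 0.0285 and 0.0398, adjusted over 6 pairs 0.0570 and 0.0796), with so few reads of *Kcnj8* that it is given as a description.

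*Cspg4* (ENSMUSG00000032911, chromosome 9, 56865033 to 56899870, plus strand) was 0.0969 to 0.344 FPKM (median 0.174, 22 to 81 reads) in GLOko embryos, against 0.0807 to 0.264 FPKM (median 0.215, 22 to 64 reads) in WT embryos, and the groups overlapped. Its log2 fold change was 0.05 (SE 0.30, adjusted p = 0.936 by limma), and the 95% interval of 0.662 to 1.62-fold is wide. In ECko embryos it was 0.0823 to 0.185 FPKM (median 0.165), against 0.0782 to 0.265 FPKM (median 0.184) in EChet embryos, with a log2 fold change of -0.17 (adjusted p = 0.746).

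**Figure D3:**
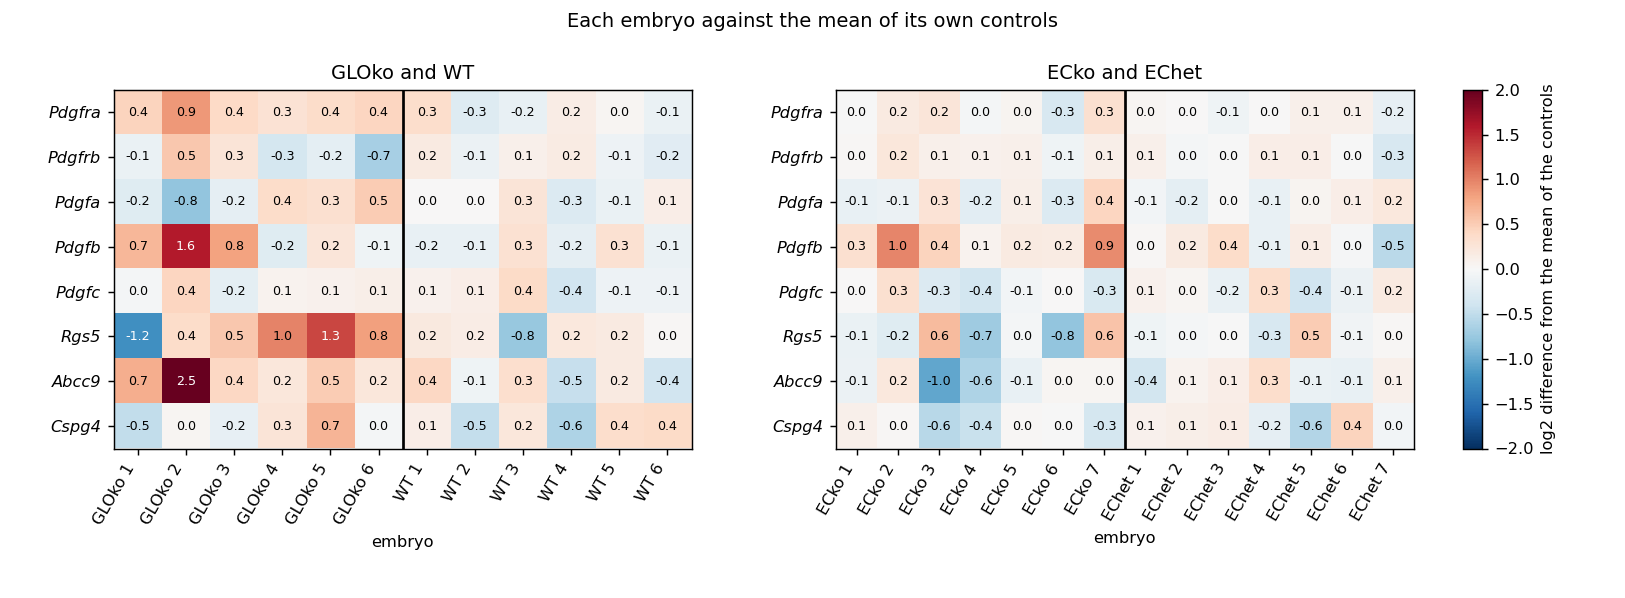
Log2 difference of each embryo (columns) from the mean of its own controls for 8 members (rows), in GLOko and WT embryos (left) and ECko and EChet embryos (right), with the colors running from -2 to 2 and the only larger value, that of *Abcc9* in GLOko 2, drawn at the end color. GLOko 2 has its 2 strongest values in *Abcc9* and *Pdgfb*, and GLOko 1 is low in *Rgs5*.

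Embryos of one genotype differed widely in several members. GLOko 2 was the highest embryo of its group in 5 of 8 members (*Pdgfra*, *Pdgfrb*, *Pdgfb*, *Pdgfc* and *Abcc9*) and the lowest in *Pdgfa*. The share of all genes in which GLOko 2 was the highest was not computed, so this is not shown to be particular to the members. The standard deviation of log2 values in GLOko embryos was more than 2 times that in WT embryos for 5 of 8 members, namely *Pdgfa* (2.67 times), *Pdgfb* (2.83), *Pdgfrb* (2.51), *Rgs5* (2.38) and *Abcc9* (2.39). It was smaller than in WT for *Pdgfra* (0.912 times), *Pdgfc* (0.801) and *Cspg4* (0.907). Over all 17573 tested genes it was larger in GLOko embryos for 86.7% and more than 2 times as large for 47.7%. In ECko embryos it was more than 2 times that in EChet embryos for *Pdgfra* and *Rgs5* (2.24 times each), and for 17.6% of all genes. These ratios are a description without a test.

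No member was shown to differ in its effect between the knockouts. By the test of the difference, 0 of 8 members passed by limma and 0 by limma-voom, where 2.07% of 17560 genes did (1.05% higher and 1.02% lower), and 2 members (*Pdgfra* and *Abcc9*) had an unadjusted p under 0.05, as did 21.0% of all genes. The median log2 fold change of the 8 members was 0.27 in GLOko embryos, against 0.01 for all tested genes, and -0.04 in ECko embryos, against 0.00. Their median absolute log2 fold change was 0.28 in GLOko embryos, against 0.29 for all genes, and 0.10 in ECko embryos, against 0.12.

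No relation of PDGFRα with its ligands was detected over all embryos. Over the 26 embryos, *Pdgfa* and *Pdgfra* had a Pearson r of -0.22 (Spearman rho = -0.11, permutation p = 0.373 and 0.609). Within the GLOko and WT table r was -0.65 (rho = -0.59, permutation p = 0.0151 and 0.0356, adjusted over 6 pairs 0.0393 and 0.107, so that rho did not pass), and -0.47 without GLOko 2 and GLOko 6. Within the ECko and EChet table it was 0.61 (rho = 0.54, permutation p = 0.0535 and 0.0878, adjusted 0.107 and 0.132), and 0.34 without ECko 7 and ECko 3. Over the 23 embryos other than GLOko 1, GLOko 2 and GLOko 6 it was 0.18 (adjusted p = 0.580 by permutation). The difference between the tables was not tested. *Pdgfc* and *Pdgfra* had an r of -0.08 over all embryos (rho = -0.19, permutation p = 0.724 and 0.376).

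**Figure D4:**
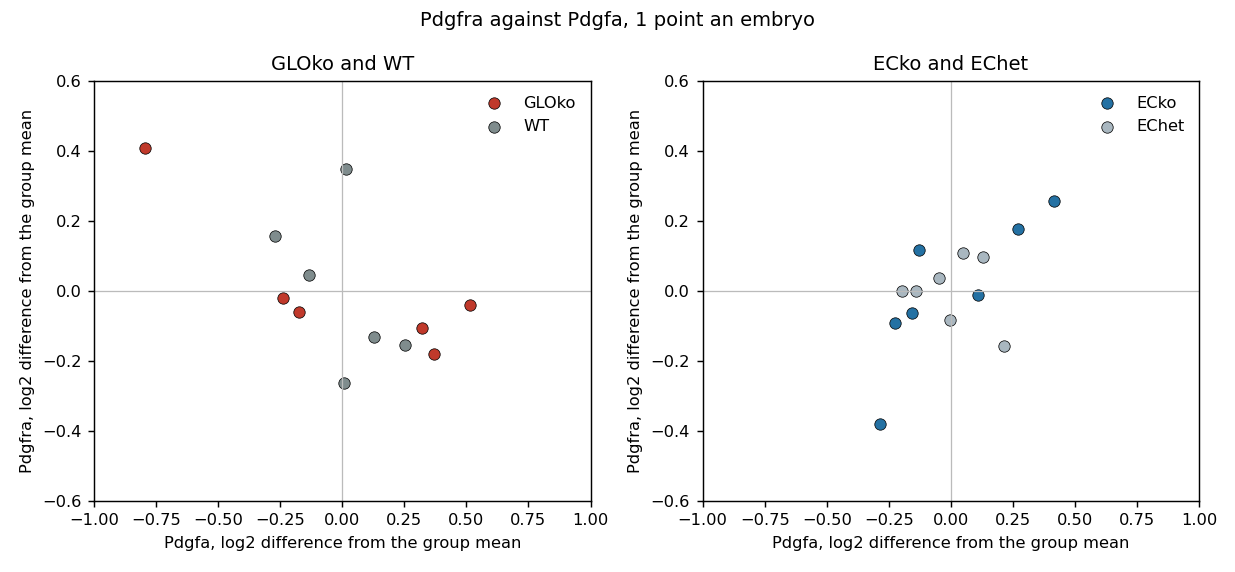
*Pdgfra* (y axis) against *Pdgfa* (x axis) as log2 differences from the group mean, 1 point per embryo, in GLOko and WT embryos (left, r = -0.65) and in ECko and EChet embryos (right, r = 0.61). GLOko 2 is the point at the upper left.

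The genes whose values followed each member most closely over the 26 embryos, relative to group means, were sought among 12033 genes averaging 1 FPKM or more. They are given with their Pearson r and, after it, with r without GLOko 1, GLOko 2 and GLOko 6, as a description. *Pdgfra* was followed by *Exoc6b* (0.81 and 0.76), a subunit of the exocyst, and *Pcsk5* (0.78 and 0.73), a proprotein convertase that can cleave PDGF-A. *Pdgfrb* was followed by *Hnrnpul1* (0.91 and 0.79) and *Mrc2* (0.89 and 0.85), a collagen receptor of mesenchyme. *Pdgfa* was followed by *Fam49a* (0.84 and 0.73) and *Grhl2* (0.84 and 0.67), a transcription factor of epithelia. *Pdgfb* was followed by *Eif4ebp1* (0.90 and 0.86), which encodes a repressor of translation, and by the clock gene *Per1* (0.89 and 0.83). *Pdgfc* was followed by *Cdkn1c* (0.89 and 0.89), an imprinted inhibitor of the cell cycle, and *Sdhc* (0.82 and 0.85), a subunit of succinate dehydrogenase. *Rgs5* was followed by *Bmp2* (0.89 and 0.84), a ligand of the BMP family, and *Surf4* (0.88 and 0.78). *Abcc9* was followed by *Olfm2* (0.91 and 0.80) and *Sord* (0.87 and 0.75), and *Cspg4* by *Sergef* (0.74 and 0.76) and *Reep6* (0.73 and 0.69). For *Kcnj8*, the highest were *Particl* (0.71 and 0.67) and *Ank3* (0.68 and 0.63), over a handful of reads. No 2 members shared a gene here.

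Around the members, other genes of the PDGF pathway were described from lists written for this purpose. Of 44 further genes for ligand processing, adaptors and signaling, all were tested, and 5 rose and 3 fell in GLOko embryos, where 5.42% of all tested genes rose and 5.01% fell, with a median log2 fold change of 0.20 (0.01 over all genes). *Map2k1*, a kinase that activates ERK, was 46.8 ± 4.98 FPKM in GLOko and 30.9 ± 4.4003 FPKM in WT embryos (SD, n = 6 each; log2 fold change 0.63, adjusted p = 0.00759 by limma). *Lrp1*, a co-receptor of PDGFRβ, was 8.18 ± 3.74 FPKM in GLOko and 3.69 ± 0.397 FPKM in WT embryos (1.06, adjusted p = 0.0148), and *Akt1*, a kinase downstream of PI3K, was lower at 52.1 ± 10.7 FPKM in GLOko and 76.8 ± 4.61 FPKM in WT embryos (-0.56, adjusted p = 0.0154). The other 5 were named after their values had been seen. The convertase gene *Pcsk5* (0.61), the ubiquitin ligase gene *Cbl* (0.50) and the immediate-early gene *Fos* (1.70) rose, and the PI3K subunit gene *Pik3r2* (-0.57) and the phosphatase gene *Ptpn1* (-0.83) fell. In ECko embryos none of the 44 passed, and the smallest p belonged to *Shc1* (log2 fold change 0.28, adjusted p = 0.218), *Nras* (-0.12, 0.218) and *Stat5b* (0.29, 0.228). *Pdgfd*, the remaining ligand of the family, was 1.17 ± 0.376 FPKM in GLOko and 1.30 ± 0.287 FPKM in WT embryos (SD, n = 6 each), with an adjusted p of 0.702.

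Of 30 further mural and smooth muscle genes, 27 were tested in each comparison, and 3 rose and 2 fell in GLOko embryos, where 5.42% of all tested genes rose and 5.01% fell. Their log2 fold changes had a median of 0.07, against 0.01 over all genes. Those that rose were *Cox4i2* (log2 fold change 2.21, adjusted p = 0.00148 by limma), *Ndufa4l2* (3.41, adjusted p = 0.00641) and, named after its value was seen, *Notch3* (0.65), the Notch receptor of mural cells. *Cox4i2* and *Ndufa4l2* mark pericytes but encode mitochondrial proteins that also respond to low oxygen. *Heyl*, a target of Notch signaling, fell (-1.67, adjusted p = 0.0102) and so did *Foxf2* (-0.99), a transcription factor of brain pericytes, also named after its value was seen. In ECko embryos none of the 27 passed, with a log2 fold change of 2.51 for *Ndufa4l2* (adjusted p = 0.118), -0.30 for the vessel-stabilizing ligand gene *Angpt1* (0.191) and 1.10 for *Cox4i2* (0.228). Beside these, all 13 genes of a list for the response to hypoxia rose in GLOko embryos, and those with the smallest p were *Pdk1* (1.64), *Bnip3* (2.37) and *Slc2a1* (1.32), and 2 of them, *Pgk1* (0.69) and *Ldha* (0.50), rose in ECko embryos, where *Pdk1* was next (0.80, adjusted p = 0.198 by limma). The 13 genes summed to 2630 to 4257 FPKM in GLOko and 1381 to 2467 FPKM in WT embryos, and to 1722 to 3021 FPKM in ECko and 1359 to 1804 FPKM in EChet embryos. Their part in the values of *Cox4i2*, *Ndufa4l2* and the members was not tested.

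Of 10 relatives of the channel subunits and of *Rgs5*, 8 were tested and none passed by limma in GLOko or ECko embryos. The smallest p in GLOko embryos after *Kcnj11* belonged to *Rgs2* (log2 fold change -0.26, adjusted p = 0.188) and *Rgs8* (-0.59, 0.195), and in ECko embryos to *Rgs8* (-0.33, 0.610), *Rgs16* (0.20, 0.696) and *Rgs4* (0.15, 0.816). Of 18 endothelial markers, 4 rose in GLOko embryos (5.42% of all genes did), namely the VEGF receptor genes *Flt1* (1.24), *Flt4* (0.67) and *Kdr* (0.76) and, named after its value was seen, *Eng* (0.46), and none passed in ECko embryos, where *Flt1* (0.51, adjusted p = 0.261), *Pecam1* (0.22, 0.261) and *Egfl7* (0.30, 0.274) had the smallest p. The endothelial markers summed to 140 to 257 FPKM in GLOko and 130 to 153 FPKM in WT embryos, with GLOko 2 the highest. Of 22 markers of mesenchyme 1 fell in GLOko embryos (5.01% of all genes did), the sclerotome gene *Pax1* (-1.10, adjusted p = 0.0204). *Meox2* (-1.14, 0.0865) and *Snai2* (0.53, 0.137) followed without passing. None passed in ECko embryos, in which *Sox9* (0.36, adjusted p = 0.203), *Sox10* (0.24, 0.298) and *Pax9* (0.33, 0.315) had the smallest p.

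**Figure D5:**
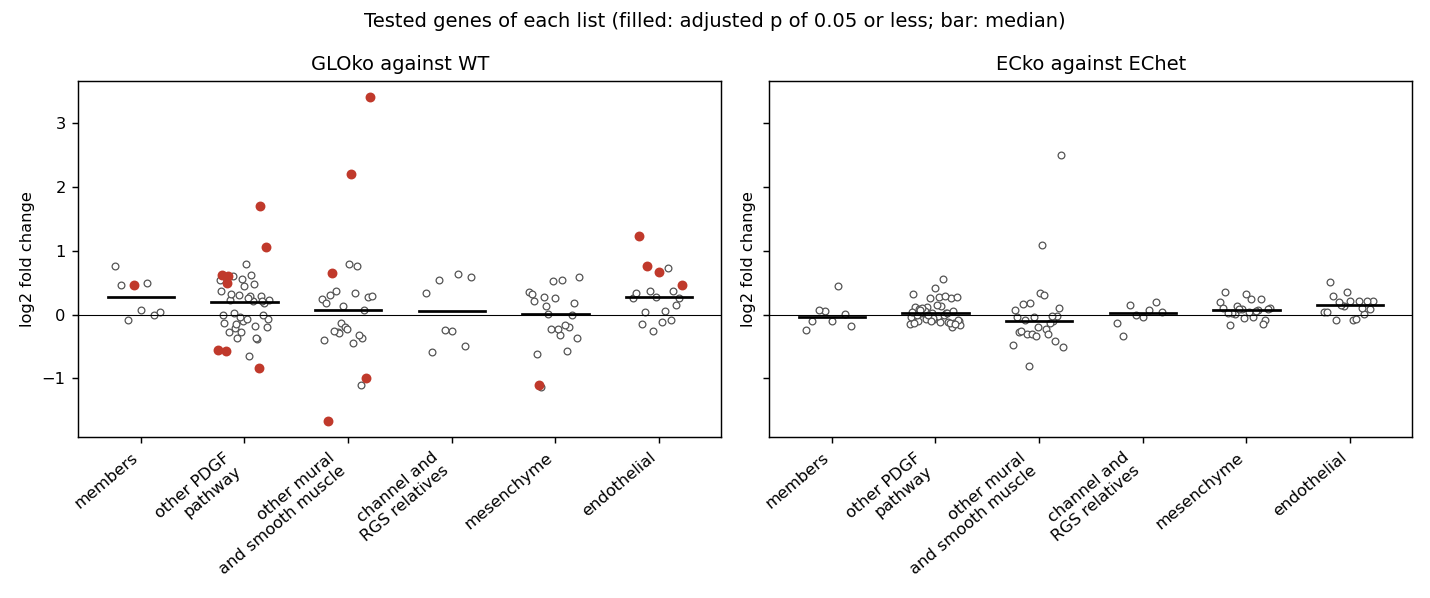
Log2 fold change (y axis) of the tested genes of 6 lists (x axis) in GLOko against WT (left) and ECko against EChet embryos (right), 1 point per gene, filled where the adjusted p was 0.05 or less, with a bar at the median of each list. The 8 tested members have a median of 0.27 in GLOko embryos and -0.04 in ECko embryos.

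The remaining lists were markers of other cells in the embryo. Of 12 epithelial markers, 1 rose in GLOko embryos (5.42% of all genes did), namely *Krt19* (1.48, adjusted p = 4.46e-04 by limma). *Cdh1* (0.54, 0.0510) and *Trp63* (0.38, 0.133) were next. In ECko embryos *Krt19* (0.76, adjusted p = 0.240), *Krt18* (0.22, 0.567) and *Cldn6* (0.10, 0.669) came first without passing. None of the tested markers of cardiomyocytes (14 of 14 tested), megakaryocytes (6 of 8), red cells (8 of 8) and yolk sac endoderm (9 of 9 in GLOko and 8 of 9 in ECko embryos) passed by limma. Yolk sac endoderm markers summed to 2.41 to 579 FPKM in GLOko and 6.01 to 31.1 FPKM in WT embryos. GLOko 5, the embryo highest in *Rgs5*, was at the top, and GLOko 4 was next with 143 FPKM. Red cell markers summed to 4356 to 10582 FPKM in GLOko and 4427 to 10099 FPKM in WT embryos. The part of these cells in the values of the members was not tested.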

How the data were processed

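RNA of whole E9.5 embryos, 1 library each, was sequenced by the study, and the authors deposited FPKM per gene in 2 tables of 54532 genes. Per the labels they were made with STAR on mm10, without a version of STAR or of the annotation. The paper's software list names HISAT2 and featureCounts beside STAR, so which aligner made the FPKM values is not clear. Deposited FPKM values were multiples of the worth of 1 read, and 100% of them gave whole reads within 0.01. On these reads limma-voom called 2062 genes in GLOko and 8 in ECko embryos. Reads in genes were 16913832 to 19491098 in GLOko, 16662293 to 23877092 in WT, 18424569 to 25364652 in ECko and 17937321 to 24765617 in EChet embryos. The Poisson intervals and the floors of *Kcnj8* reads cover counting error only. The intervals of fold changes come from limma and reflect the spread between embryos.

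Each comparison was fitted within its own table by limma 3.58.1 (R 4.3.3, trend and robust) on log2(FPKM + 0.1) after median-of-ratios scaling, for genes averaging 0.1 FPKM or more, with Benjamini-Hochberg adjustment over all of them and a threshold of 0.05. Fold changes are on this scale, which understates changes of low genes. The authors used a count model on reads. Since the deposited unit is FPKM, limma on the log2 scale was the main test here and limma-voom on the recovered reads an alternative. Single genes were also tested by exact permutation over embryos (two-sided), with smallest possible p of 0.00216 for 6 against 6 and 0.000583 for 7 against 7. Correlations used 100000 permutations. Code was tested on simulated data.

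The members and lists were chosen with earlier results of these data known. Named were all members, from each list the 3 genes with the lowest p per comparison, and the 2 genes most like each member. Lists of heart, megakaryocyte, red cell and yolk sac markers are given by counts and sums alone. Alternatives were other pseudocounts, filters, scalings and weights, limma-voom on recovered reads, all groups in 1 fit, a replicate block, detected genes as a covariate, and embryos left out.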

Additional observations from a re-analysis of the deposited data

Results flagged for a closer look

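In 4 of 36 combinations of member and group, 1 embryo stood farther from the others than Dixon's 95% limit. The limit is set to be passed by chance about 1 in 20 times. The share over all genes was not computed, so the count is a description and not a trait of the members. *Pdgfra* was 21.1 FPKM in GLOko 2, while the other GLOko embryos had 14.6 to 16.1 FPKM. *Abcc9* was 4.73 FPKM in the same embryo, while the others had 0.923 to 1.34 FPKM. *Rgs5* was 1.69 FPKM in WT 3, while the other WT embryos had 3.00 to 3.43 FPKM. *Rgs5* was 5.55 FPKM in EChet 5, while the other EChet embryos had 3.07 to 3.92 FPKM. GLOko 2 was also the embryo with the most transcripts of megakaryocyte (136 FPKM), endothelial (257 FPKM) and mesenchyme markers (615 FPKM), and their part in its values was not tested.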

How the results depend on the processing

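In GLOko embryos, 1 member (*Pdgfra*) and 1833 genes passed. The counts were 0 members and 1209 genes with no filter, 0 members with limma without trend and robust, 2 members (*Pdgfra* and *Rgs5*) and 2799 genes with array weights, 4753 genes with the 4 groups in 1 fit, 0 members and 456 genes with detected genes as a covariate, and 0 members and 542 genes without GLOko 1 and WT 4. Leaving out 1 embryo at a time gave 0 to 2 members and 731 to 2491 genes. The log2 fold change of *Pdgfra* kept its sign in all 26 alternatives (0.36 to 0.53, adjusted p 0.00287 to 0.0942) and passed in 14. *Rgs5* ran from 0.30 to 0.97 (adjusted p 0.0269 to 0.612) and passed in 3, and its adjusted p was 0.0432 with array weights. In ECko embryos, 17 genes passed, against 5 with no filter, 1 with limma without trend and robust, 31 with array weights, 8 by limma-voom, 0 with the 4 groups in 1 fit and 3 to 51 with 1 embryo left out, and 0 members passed in every alternative run. *Pdgfb* there ran from 0.28 to 0.51 (adjusted p 0.167 to 0.758). For the difference of effects, 0 members passed in 39 alternatives. Embryos were not treated as pairs, since the labels do not say whether replicate numbers mark litters. Same-numbered embryos had correlations of -0.04 to 0.16 in GLOko and WT and -0.12 to 0.22 in ECko and EChet embryos. For GLOko 6, ECko 1 and ECko 2 the control with the same number had the highest correlation. These values cannot settle whether same-numbered embryos shared a litter, because embryos also differ for other reasons. With a replicate block the counts were 0 members and 1010 genes in GLOko embryos (*Pdgfra* adjusted p = 0.0811) and 0 genes in ECko embryos. Of the correlations, *Abcc9* with *Kcnj8* was 0.43 (adjusted p = 0.0469) with a pseudocount of 1, *Pdgfb* with *Pdgfrb* 0.58 (adjusted p = 0.0811) within the ECko and EChet table, and *Pdgfa* with *Pdgfra* -0.65 (adjusted p = 0.0393) within the GLOko and WT table. The cause of these shifts was not tested. *Kcnj8* had 0 to 7 reads an embryo and *Cspg4* 18 to 81, and each group had 6 or 7 embryos.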
